A study of Mus musculus with 5 samples.

Results

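The gene segments of the T-cell receptor loci and of the immunoglobulin light-chain loci are described here with the H3K27ac peaks that lay among them or close by. Members were taken by symbol from an annotation of mouse build GRCm38. They were the V, D, J and constant segments named Tra, Trb, Trd or Trg and the V, J and constant segments named Igk or Igl. This gave 450 segments of 49939 annotated genes. One further gene matched by letters only (Tradd, a signalling adaptor) and was left out. The segments form 5 loci, since the Trd segments lie among those of Tra. The peaks were all those that overlapped a locus, measured from its first to its last segment, or the 50 kb on either side. There were 27 such peaks among the 22948 of the list.

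H3K27ac is a histone mark found at active promoters and enhancers. It was mapped by ChIPmentation, in which chromatin bound by an antibody is cut and tagged for sequencing by the transposase Tn5. Per the labels, the cells were mouse bone marrow cells sorted as CD45.2+ Lineage- Sca1+ Kit+ and named HSC/MPP, that is, blood stem cells and multipotent progenitors. All were labelled Mll3/4 deleted, a loss of a pair of histone methyltransferases. H3K27ac was sequenced in 4 libraries and the input in 1, and no group with intact Mll3 and Mll4 was analysed here. The values came from 1 peak list for the 4 libraries together. It therefore held no replicate error, no test was possible between samples or genotypes, and the total read depth was unknown. Each peak carried a signal value, the authors' enrichment ratio of the mark over background, and a −log10 q, where q is the authors' p-value corrected for multiple testing.

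Antigen receptor genes are assembled during lymphocyte development. The RAG recombinase joins 1 V segment, in some loci 1 D segment, and 1 J segment, and the joined exon is spliced to a constant segment. The alpha, beta, gamma and delta chains of the T-cell receptor are assembled in the thymus, and the kappa and lambda light chains in B-cell precursors of the marrow after the heavy chain. Each locus carries enhancers near its constant segments: between Trac and Dad1 for alpha, between the last Trdj segment and Trdc for delta, between Trbc2 and Trbv31 for beta, downstream of the constant segments for gamma and lambda, and in the J to C intron and further downstream for kappa. Unrearranged segments are transcribed without coding for a receptor once their chromatin opens.

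The promoter table used here (RefSeq, GRCm38.p6) held no window for a segment. It held 32 windows of 300 bases, from 250 bases before to 50 after a start, for 31 other genes in the 5 loci and their flanks. Of these windows, 3 were overlapped by a peak (those of the neighbouring genes Dad1 and Abhd4, read in opposite directions, and of 1 lncRNA), against 19.6% of all 32851 promoter windows. Stard3nl and Rpia, flanking genes with a peak within 1 kb of an end, had no window among the 32. The windows with a peak are shown with every CpG in capitals (Dad1 on the strand of Abhd4), together with the window of a second Abhd4 start, whose edge lay 5 bases from a peak. The Ephb6 window, which had no peak and was also rich in CpG, is shown for contrast.
Abhd4, window overlapping that of Dad1, chr14:54253879-54254178, plus strand: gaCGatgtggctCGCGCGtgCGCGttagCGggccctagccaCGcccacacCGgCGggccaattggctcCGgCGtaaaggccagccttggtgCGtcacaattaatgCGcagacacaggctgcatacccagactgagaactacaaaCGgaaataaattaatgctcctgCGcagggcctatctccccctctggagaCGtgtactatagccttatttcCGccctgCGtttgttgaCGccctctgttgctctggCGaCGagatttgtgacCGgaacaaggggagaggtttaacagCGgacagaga
Abhd4, second start, chr14:54259033-54259332, plus strand: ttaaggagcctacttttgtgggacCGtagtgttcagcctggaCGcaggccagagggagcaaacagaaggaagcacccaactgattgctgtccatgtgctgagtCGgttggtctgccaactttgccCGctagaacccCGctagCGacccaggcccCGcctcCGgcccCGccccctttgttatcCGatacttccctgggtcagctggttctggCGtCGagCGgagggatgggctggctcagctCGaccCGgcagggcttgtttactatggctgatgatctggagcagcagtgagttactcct
Gm40827, beside Stard3nl, chr13:19395597-19395896, plus strand: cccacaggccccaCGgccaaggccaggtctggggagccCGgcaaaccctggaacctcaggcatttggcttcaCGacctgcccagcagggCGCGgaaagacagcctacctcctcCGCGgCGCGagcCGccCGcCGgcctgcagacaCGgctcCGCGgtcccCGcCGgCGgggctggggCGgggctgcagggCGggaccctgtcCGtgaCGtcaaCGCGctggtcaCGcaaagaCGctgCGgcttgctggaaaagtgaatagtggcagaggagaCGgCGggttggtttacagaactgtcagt
Ephb6, chr6:41605261-41605560, plus strand: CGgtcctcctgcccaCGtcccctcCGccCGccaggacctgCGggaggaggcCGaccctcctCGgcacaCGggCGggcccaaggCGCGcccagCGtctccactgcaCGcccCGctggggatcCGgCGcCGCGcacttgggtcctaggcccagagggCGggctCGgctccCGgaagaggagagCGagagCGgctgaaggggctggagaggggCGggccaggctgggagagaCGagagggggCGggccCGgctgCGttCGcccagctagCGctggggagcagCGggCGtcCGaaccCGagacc

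The first window held 24 CpG. The Dad1 window is its reverse complement over 299 shared bases and held 24 as well. The Gm40827 window held 29 and the second Abhd4 window 15. Ephb6 held 34. The 29 windows without a peak had a median of 1 CpG, and 27 of them held 8 or fewer. Over all promoters, the median was 22 CpG with a peak and 5 without. So the windows with a peak were rich in CpG, as were peak-bearing promoters elsewhere, and the Ephb6 window was as rich without a peak. Dad1 encodes a subunit of the oligosaccharyltransferase, which most cells use, and Abhd4 encodes a lipid hydrolase.

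The octamer, bound by Oct factors and characteristic of immunoglobulin V promoters, was sought as ATGCAAAT or ATTTGCAT, that is, on both strands. It was found in 2 of the 32 windows and in 1.74% of all promoters. One of them was at Gm35545, a non-coding RNA gene of the lambda locus on chromosome 16, shown with the octamer in capitals.
Gm35545, chr16:19218252-19218551, plus strand: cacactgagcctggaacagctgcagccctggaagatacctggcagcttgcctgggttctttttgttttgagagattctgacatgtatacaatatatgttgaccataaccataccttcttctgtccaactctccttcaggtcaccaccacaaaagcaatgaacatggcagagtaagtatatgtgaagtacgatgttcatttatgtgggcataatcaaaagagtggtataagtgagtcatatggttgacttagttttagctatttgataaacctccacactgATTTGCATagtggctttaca
No peak overlapped that window. The recombination signal heptamer (CACAGTG or CACTGTG) was found in 5 of the 32 windows and 6.81% of all promoters, and the E-box CAGGTG or CACCTG in 10 of the 32 and 20.2% of all. All of these 10 except Olfr164 and the kappa non-coding RNA gene LOC108169192 were in the Trb window. Some of them, such as Prss3 and Gm10334, had nearly the same sequence, so they are not independent. None of the windows with a peak held any of these 3 motifs.

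Few segments had a listed peak close by. A peak lay within 1 kb of 4 of the 450 segments, or 0.889% (95% Wilson interval 0.346% to 2.26%, counting error only), against 25.3% of all annotated genes. Among the 16065 annotated genes no longer than 1739 bp, the length of the longest V, D or J segment, the share was 6.24%. The 4 were all V segments: Trav2 of the alpha chain, and Igkv8-34, Igkv3-2 and Igkv12-47 of the kappa chain, the last annotated as a pseudogene. No D, J or constant segment of any of the 5 loci had one within 1 kb. With a margin of 5 kb, 2 segments at Tra/Trd, 1 at Trb, 2 at Trg and 7 at Igk had one. Within 1 kb, no segment had a peak with a −log10 q of at least 5. Each of the 4 had a peak of its own. Segments lie side by side and a peak can lie near several, so they are not independent of each other.

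The loci differed in how many peaks they had. The kappa locus (Igk, chromosome 6 from 67555636 to 70726754) had 15 over a window of 3271 kb, or 0.459 per 100 kb. Tra/Trd (chromosome 14 from 52427967 to 54224198) had 5 over 1896 kb, or 0.264 per 100 kb. Trb (chromosome 6 from 40891296 to 41558371) had 2 over 767 kb, or 0.261 per 100 kb. Trg (chromosome 13 from 19178042 to 19352343) had 5 over 274 kb, or 1.82 per 100 kb. The lambda locus (Igl, chromosome 16 from 19061752 to 19260844) had 0 over 299 kb. All chromosomes together carried 0.849 per 100 kb. Trg thus lay above this level and the other 4 loci below it. Without the 50 kb flanks, Trg had 1 peak, or 0.574 per 100 kb, and lay below it too. With −log10 q of at least 5, the order by count changed: 3 peaks were left at Trg, 2 at Tra/Trd and 0 at Igk and at Trb.

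Counts as low as those from the full list were common in stretches of the same length. When every chromosome was divided into stretches as long as each window, 38.1% of them had at most 15 peaks for Igk, 35.1% at most 5 for Tra/Trd, 46.4% at most 2 for Trb and 48.8% had 0 for Igl. For Trg, 85.3% had at most 5. Of the 27 peaks, 12 lay between the first and last segment of a locus and 15 in the 50 kb past the last segment on the high-coordinate side. None lay in the 50 kb before the first segment. Only 3 peaks overlapped a segment itself.

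**Figure D1:**
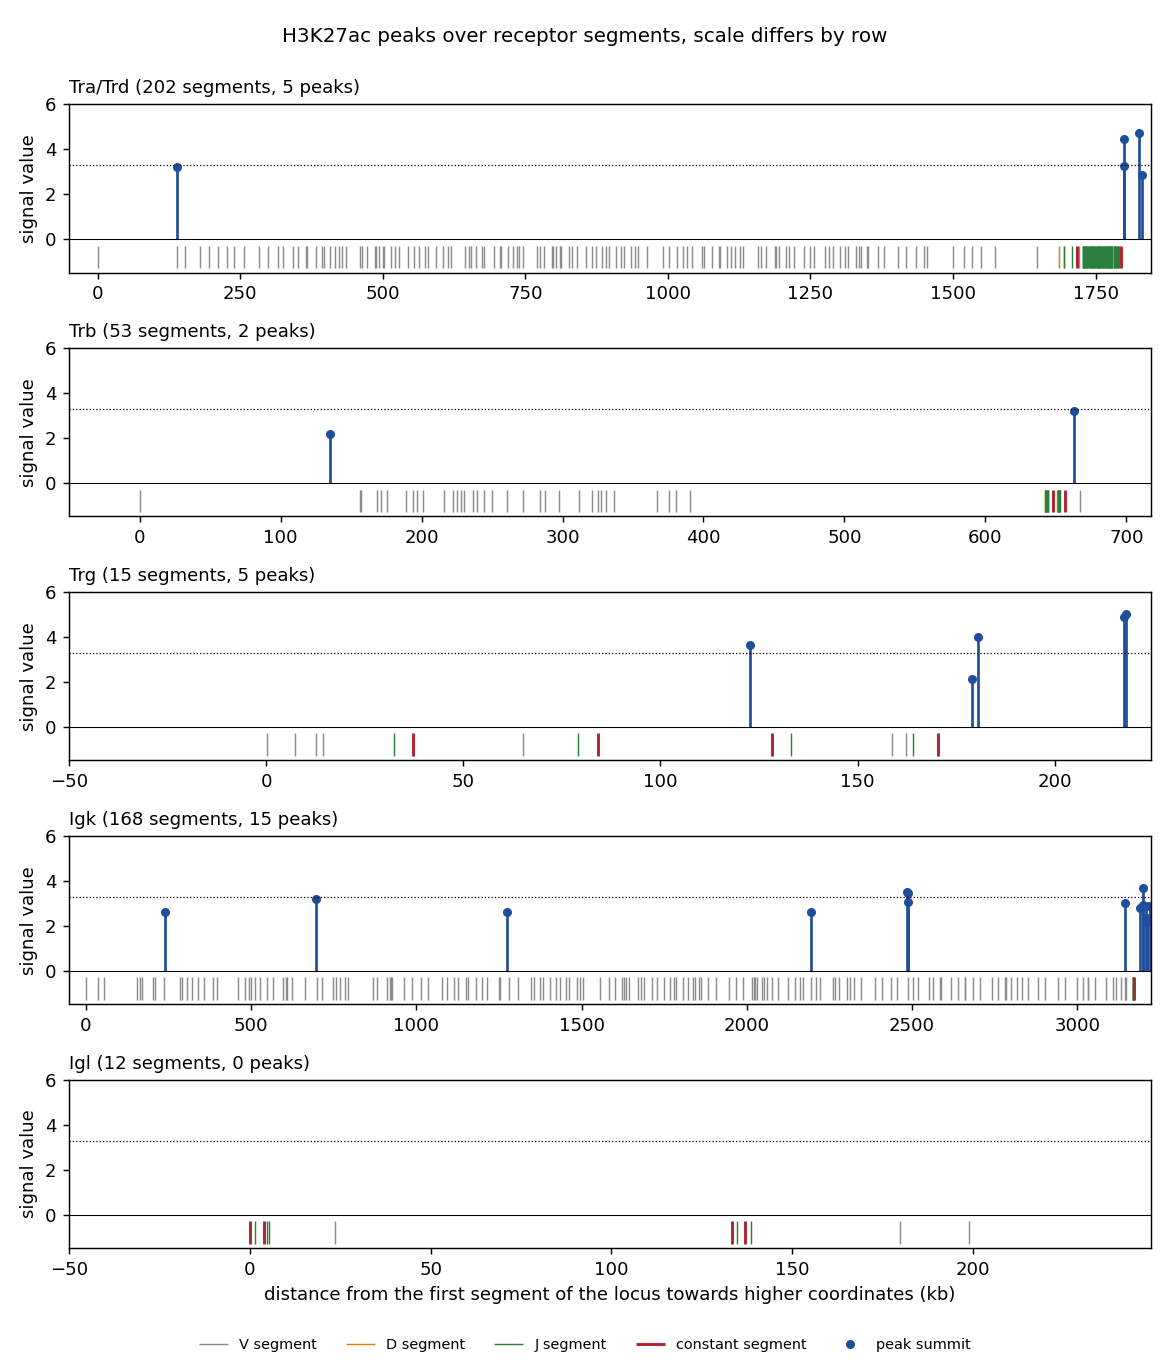
Peaks and segments of the 5 loci. The horizontal axis is the distance in kb from the first segment, on a scale that differs by row. Ticks below 0 are segments and carry no value, blue lines give the signal value at each peak summit, and the dotted line is the median of all peaks, 3.27. Peaks stand at the right-hand edge of Tra/Trd, Trg and Igk, and none is seen at Igl.

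The immunoglobulin heavy chain locus (Igh), read in the same way, is the nearest relative of these loci. It had 132 peaks, or 4.63 per 100 kb, and a peak lay within 1 kb of 65 of its 215 segments (30.2%, Wilson interval 24.5% to 36.7%). Over all annotated genes this share was 25.3%, and over those as short as segments 6.24%. The strongest peak of Igh had a signal value of 15.4, against 5.02 over the 5 loci. With 1 pooled list, the difference was not tested.

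**Figure D2:**
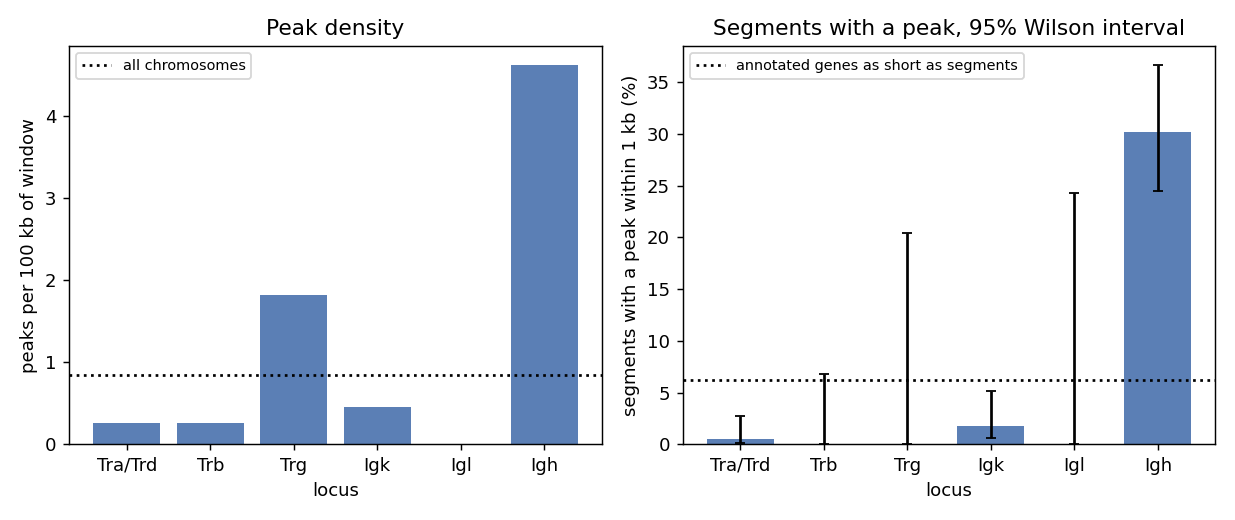
Left, peaks per 100 kb of each locus with its 50 kb flanks, with the value of all chromosomes (0.849) as a dotted line. Right, the percentage of segments with a peak within 1 kb, with 95% Wilson intervals for counting error and, dotted, the share of annotated genes as short as segments (6.24%). Counted with its flanks, Trg stands above the line on the left (0.574 without them, below the line), and only Igh stands above it on the right.

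Of the 27 peaks, 9 had a signal value above the median of the list. Their median signal value was 3.06, with a range from 2.12 to 5.02, against a median of 3.27 and an interquartile range from 2.69 to 4.62 over all peaks. A signal value of at least 4 was reached by 4 of the 27 (14.8%), against 33.9% of all peaks. A q-value above 0.05 was attached to 6 of the 27, close to the 21.2% of the whole list. The median width was 873 bp, and the range was 277 to 1829 bp, against a median of 854 bp. By locus, the median signal value was 3.98 at Trg, 3.24 at Tra/Trd, 2.89 at Igk and 2.68 at Trb. The ranges of all 4 overlapped. The 4 peaks of at least 4 were at Trg and Tra/Trd, and the 15 of Igk ended at 3.70.

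**Figure D3:**
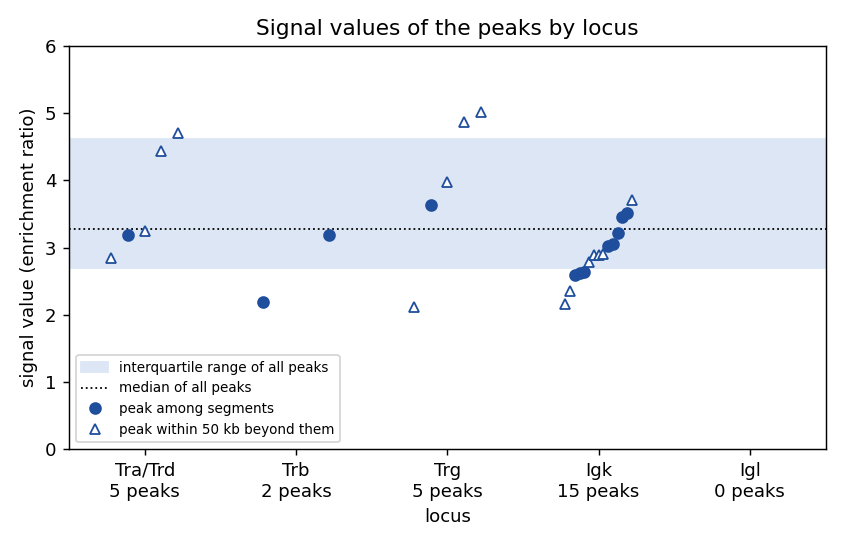
Signal value of each peak by locus. Filled circles lie between the first and last segment, and open triangles in the 50 kb beyond. The band is the interquartile range of all peaks (2.69 to 4.62) and the dotted line their median. The only 3 points above the band are triangles, 1 at Tra/Trd and 2 at Trg.

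At the alpha and delta chains, the peaks stood past the constant segment of alpha. Trac (chromosome 14 from 54220521 to 54224198) encodes the constant part of the alpha chain and, as the order of Traj and Trac shows, is read towards higher coordinates. Between it and Dad1, in the 11.3 kb interval that holds the known alpha enhancer, there were 2 peaks. The nearer (54226341 to 54227178) had its summit 2.69 kb past Trac, a signal value of 3.24 and a −log10 q of 3.22. The next (54227606 to 54228085) had its summit 3.72 kb past Trac, a signal value of 4.44 and a −log10 q of 6.93. The second was stronger than 72.6% of the list, and it was the strongest of the 27 peaks that overlapped no annotated gene. The peak list names no element, so a peak in this interval shows acetylation there and not which enhancer carries it.

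Further on, a peak covered the divergent starts of Dad1 and Abhd4, whose window is printed above (54253042 to 54254870). Its signal value was 4.71 and its −log10 q 8.34. The last peak of that flank (54259337 to 54259621), beside the window of the second Abhd4 start, had a signal value of 2.84 and a −log10 q of 1.67.

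Within the segments themselves a single peak was found. It overlapped Trav2 (52566281 to 52567826), one of the V segments farthest from Trac, with a signal value of 3.18 and a −log10 q of 2.68. From there to the first peak past Trac ran 1659 kb without a peak. This stretch held 200 of the 202 segments, with every Trd and Traj segment. Peak-free stretches at least as long numbered 247 of 22927 in the list, whose median was 20.6 kb. The 6.01 kb between Trdj2 and Trdc, where the delta enhancer lies, had 0 peaks. The nearest peak to Trdc (constant part of the delta chain) was 80.8 kb away, and it was the one 2.69 kb past Trac.

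At the beta chain, 1 of the 2 peaks lay at the constant segments. It stood between Trbc2 (constant part of the beta chain, chromosome 6 from 41546730 to 41548181) and Trbv31, in the 9.51 kb that hold the known beta enhancer. This peak (41553480 to 41555129) had its summit 5.94 kb past Trbc2, a width of 1650 bp, a signal value of 3.18 and a −log10 q of 2.68. No peak lay between the J segments and either constant segment, and none overlapped any of the 35 V segments. The other peak (41026346 to 41026622) lay at the far end of the locus, 20934 bp before Trbv2. Its signal value was 2.18, and its −log10 q of 0.62 corresponds to a q-value of 0.241.

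At the gamma chain, whose constant segments each have their own J segment, 3 peaks followed constant segments. Trgc2 (chromosome 13 from 19305060 to 19307551) is read towards lower coordinates and Trgc4 (19344558 to 19352343) towards higher ones. A peak (19300774 to 19301283) had its summit 4.19 kb past Trgc2, a signal value of 3.64 and a −log10 q of 4.38. Past Trgc4, a peak (19355940 to 19357289) had its summit at 4.81 kb, with a signal value of 2.12 and a q-value of 0.0752. That summit also lay 0.525 kb before Stard3nl. The next (19357791 to 19359141) stood at 6.13 kb, inside the end of Stard3nl, with a signal value of 3.98 and a −log10 q of 5.62. Trgc1 and Trgc3 had no peak within 20 kb downstream, and their nearest peak was the one past Trgc2, at 84.3 kb and 37.5 kb. So the constant segments of this locus fell into a pair with a peak close by and a pair without. For Trgc4, both of the close peaks also lay at an end of Stard3nl.

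The other 2 peaks of that window were its strongest. The first lay inside Stard3nl at its high-coordinate end and the second inside the neighbouring non-coding RNA gene Gm40827, so that they stood on either side of the start of Gm40827. Stard3nl encodes a protein of late endosomes that binds the endoplasmic reticulum. The first (19395233 to 19395745) had a signal value of 4.86 and a −log10 q of 9.06, and the second (19395905 to 19396530) 5.02 and 9.80. Their summits were 43.2 and 43.7 kb past Trgc4. The promoter window printed above overlaps the first and ends just short of the second. No peak overlapped any of the 15 Trg segments.

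**Figure D4:**
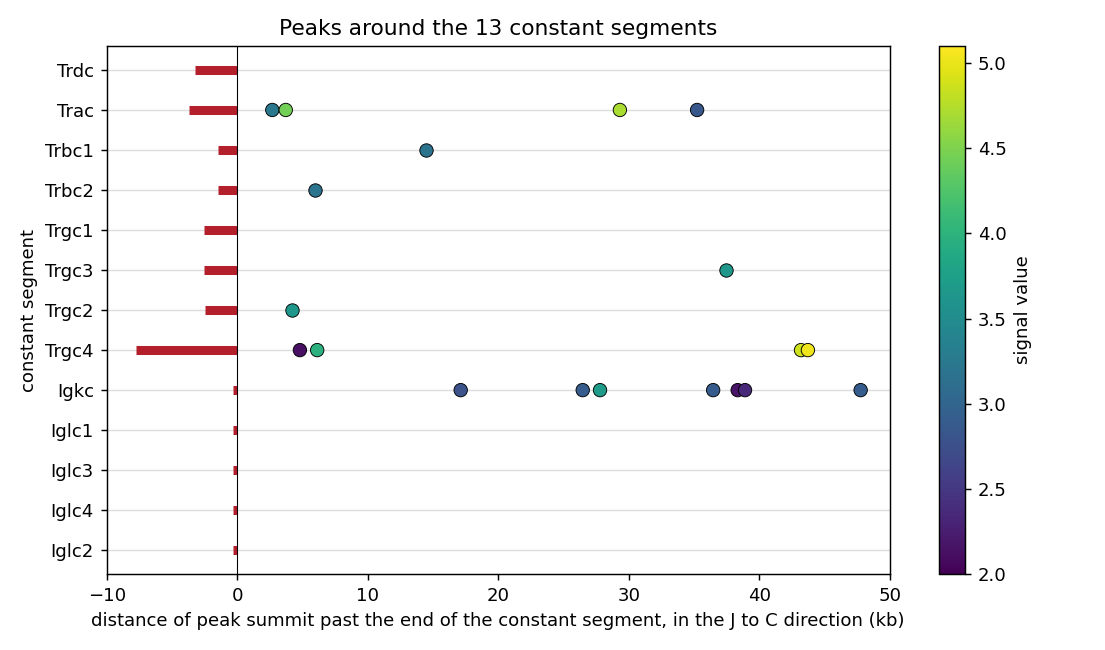
Peaks around the 13 constant segments. The horizontal axis is the distance in kb from the end of the constant segment (red bar, at 0) to the peak summit, in the direction from J to C, and the colour is the signal value. A peak can appear in more than 1 row of a locus. Trac, Trbc2, Trgc2 and Trgc4 have a peak within 7 kb, and Igkc has its first at 17.1 kb. The rows of Trdc, Trgc1 and the 4 Iglc segments are empty.

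At the kappa light chain, the peaks near the constant segment began further out. Igkc (chromosome 6 from 70726435 to 70726754) encodes the kappa constant part and is read towards higher coordinates. The 2.51 kb between Igkj5 and Igkc, which hold the intronic kappa enhancer, had 0 peaks, and so had the 18.4 kb between Igkv3-1 and Igkj1. The first peak downstream (70743688 to 70744776) had its summit 17.1 kb past Igkc, inside the non-coding RNA gene Gm30211, with a signal value of 2.78 and a −log10 q of 1.67. It was the only one within 20 kb of Igkc. A neighbouring pair followed at 26.5 kb (70753098 to 70754074, signal value 2.91) and 27.8 kb (70754326 to 70755289, signal value 3.70, −log10 q 4.38). The latter had the highest signal value of the 15.

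The remaining 4 peaks past Igkc lay at or near Rpia, which encodes an isomerase of the pentose phosphate pathway. Their summits were at 36.5, 38.3, 38.9 and 47.8 kb, and their signal values were 2.89, 2.17, 2.35 and 2.89. The middle pair had q-values of 0.11 and 0.166.

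Among the 162 kappa V segments there were 8 peaks, and 3 of these formed a cluster at Igkv8-34. Igkv8-34 is annotated as a V segment and not as a pseudogene. The cluster consisted of a peak from 70039768 to 70040923 (signal value 3.52, −log10 q 4.94), one from 70041491 to 70042255 (3.45 and 3.86) and one from 70043616 to 70044488 (3.06 and 2.68). Only the last overlapped the segment, and the others ended 3189 bp and 1857 bp before it. Igkv3-2, the second V segment from the J end, was overlapped by a peak (70698738 to 70699544) with a signal value of 3.03 and a −log10 q of 2.16. The peak nearest Igkv12-47 (69749519 to 69749882) ended 972 bp from it and had a signal value of 2.62 and a −log10 q of 1.35.

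The 3 other peaks over the V segments were isolated. One (68252291 to 68253213) had a signal value of 3.21 and a −log10 q of 2.68. The others (67795318 to 67796149 and 68829751 to 68830644) had signal values of 2.60 and 2.63, and both had a q-value of 0.0604. The longest stretch of the locus without a peak was 919 kb and held 54 of its 168 segments. V segments of a locus resemble each other, in Tra as in Igk, and how reads that match several of them were placed is not given in the sources used here. The absence of a peak at such a segment is therefore uncertain.

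The lambda light-chain locus had no peak at all. Its 12 segments, among them the constant segments Iglc1, Iglc2 and Iglc3 and the pseudogene Iglc4, lay in a stretch of 923 kb without a peak. Stretches at least as long numbered 504 of 22927. A locus without a listed peak had none that passed the authors' calling, which does not show that the mark was absent.

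Other genes lie among the segments. Of the 28 protein-coding genes in the 5 windows, 4 had a peak within 1 kb of an end, against 36.2% of all protein-coding genes. The 4 were Dad1, Abhd4, Stard3nl and Rpia, all in flanks and none among segments. The 5 olfactory receptor genes of the Tra/Trd window and the 1 of the Igl window had none. Neither had the 7 genes named Prss or Try among the Trb V segments, mostly trypsinogens, which serve digestion. Ephb6, a receptor of the ephrin family at the edge of the Trb window, had none.

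The genes that act on these loci were read beside them. Their lists, and the marker lists below, were chosen with earlier results of these data known. The shares are therefore a description and no test. Of 20 genes of light-chain recombination and its regulation, 18 had a peak at an end, against 36.2% of all protein-coding genes. The highest signal values were those of Blnk, a linker of pre-B-cell receptor signalling (13.6), and of the transcription factors Foxo1 and Ebf1 (both 12.4). At the low end, Vpreb2 (2.59), Cd79b (2.69) and Syk (2.69) lay below the median of all peaks, 3.27. Irf8 and Ikzf3 had no peak at an end. Chosen after their values were seen, the recombinase genes Rag1 and Rag2 had 9.31 and 6.76, and Dntt, which adds bases at V(D)J joints, had 11.1. Of 12 genes of T-cell receptor signalling, 2 had a peak, against the same 36.2%: the kinase gene Zap70 (7.0) and Cd3d, a chain of the receptor complex (4.90). The label of the cells was read against marker lists in the same way. These lists partly repeat the ones above and are no separate observation. Ebf1, Pax5, Blnk, Vpreb1, Cd79a and Cd79b are in both the B-cell and the light-chain list. Lck, Cd4, Cd8a, Cd3d, Cd3e and Cd3g are in both the T-cell marker and the T-cell receptor signalling list. Peaks lay at 5 of 10 stem and progenitor markers, 7 of 10 B-cell, 1 of 10 T-cell, 1 of 8 natural killer and innate lymphoid, 0 of 6 myeloid and 1 of 6 erythroid markers, against 36.2% of all protein-coding genes. The T-cell marker with a peak was Cd3d, while Cd3e, Cd3g, Lck, Cd4, Cd8a, Bcl11b, Gata3, Tcf7 and Themis had none. In pooled cells, strong acetylation in few cells and weak acetylation in many cannot be told apart, and the part of B- or T-lineage cells in the peaks of the 5 loci was not tested.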

How the data were processed

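H3K27ac ChIPmentation was carried out on 4 libraries of sorted Mll3/4-deleted cells, with 1 input library. Per the submitters' processing notes, BWA and MACS2 were used with build mm10, the other name of GRCm38. Their versions and filters are not given in the sources used here. The list is named an overlap, optimal peak set, but how peaks were kept or dropped across replicates is not described. The authors deposited 1 narrowPeak list without values of single libraries. It holds a score, a signal value (read as a fold enrichment ratio over background), −log10 p-values and −log10 q-values per peak, all the authors' own. The score and the p-values were not used.

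Gene positions came from RefSeq GRCm38.p6. Coordinates are 1-based. Overlaps were counted with Python 3.11.15 and pandas 2.3.3, and the counting was tested on planted peaks. The authors' values served only to describe and rank peaks. The direction of a constant segment was taken from its J segments. Named were, per locus, the constant segments, segments with a peak within 1 kb, the 3 strongest peaks, peaks within 20 kb past a constant segment, flanking genes with a peak, and the top members of the lists. All peaks of the 5 windows were then described. Members and lists were chosen with earlier results of these data known. Genome stretches were laid end to end from the first to the last gene or peak of each chromosome, assembly gaps included. Wilson intervals were computed at the 95% level with SciPy 1.17.1. Alternatives were windows of 0 and 100 kb, segment margins of 0 and 5 kb, summits in place of overlaps, merging of peaks within 1 kb, and stricter lists.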

Additional observations from a re-analysis of the deposited data

How the results depend on the processing

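Of 60 recomputed values, 45 stayed within the tolerance set for them and 15, all counts, moved. The tolerance was 1.5 times for a count. For a median signal value it was the 95% interval from binomial order statistics at Igk (2.62 to 3.21) and, with only 2 to 5 peaks, the whole range of the peaks at Tra/Trd, Trb and Trg, so it is a loose limit there. With −log10 q of at least 5, the median rose from 3.24 to 4.57 at Tra/Trd and from 3.98 to 4.86 at Trg, both inside that range. The list with a q-value of at most 0.05 was chosen after the data were seen. With −log10 q of at least 5, the peaks fell to 2 at Tra/Trd, 3 at Trg, 0 at Trb and 0 at Igk, and segments with a peak fell to 0 at Tra/Trd and 0 at Igk. With a window of 0 kb, the peaks were 1 at Tra/Trd, 1 at Trg and 8 at Igk. Merging within 1 kb left 3 at Trg. A q-value of at most 0.05 left 1 at Trb. With a margin of 5 kb, segments with a peak numbered 2 at Tra/Trd, 1 at Trb, 2 at Trg and 7 at Igk. These moves follow from fewer peaks, a narrower window or a wider margin. Igl had 0 under all 6 alternatives. No library could be left out in turn, and no paired analysis was possible because the 4 libraries share 1 column of values. The total depth is unknown, so weak peaks missed for lack of reads could not be counted.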

Other observations

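Beyond the 50 kb flanks, only Igk had further peaks within 100 kb. Just inside that limit lay the Rpia peak 47.8 kb past Igkc (signal value 2.89). Just outside, at 65.9 kb, lay a peak with a signal value of 3.15 (70792407 to 70792855 on chromosome 6), and at 97.6 kb one with 3.24. The peaks nearest to Igl on chromosome 16 lay 225 kb before its first segment (18836726 to 18837083, signal value 2.35, inside 2510002D24Rik) and 499 kb past its last (19759869 to 19762762, signal value 4.98, −log10 q 14.7, inside B3gnt5).

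In Igh, 117 of the 132 peaks had their summit over the stretch of V segments, and 59 of its 183 V segments had a peak within 1 kb. All 4 of its J segments had one, as had 1 of its 20 D segments and 1 of its 8 constant segments. Over the stretch of D, J and constant segments there were 5 peaks, and neighbouring segments can share a peak. No J segment of the 5 loci had one (62 at Tra/Trd, 14 at Trb, 4 at Trg, 5 at Igk, 5 at Igl). Over all annotated genes the share was 25.3%, and over those as short as segments 6.24%. These differences were not tested.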
